A study of Mus musculus with 12 samples.

Results

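The genes described here are 34 mouse genes of the endoplasmic reticulum (ER) that fold, retain, export or degrade secretory proteins, or that run the unfolded protein response. They were chosen by name from a fixed list of ER chaperones, folding enzymes, stress sensors, transcription factors, degradation components, KDEL receptors and translocon subunits. All 34 were on the array, out of 12393 genes with a probe set of their own. Each gene is represented by 1 probe set, the brightest of those annotated to that gene alone. The 34 genes have 75 such probe sets in all, and 13 of them have only 1.

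The tissue was the scraped epithelial layer of the mouse colon. Wild type C57BL/6 males and males of a cytochrome P450 reductase null line (POR-null) were compared, all 6 to 8 weeks old, on a powdered soya-free RM3 diet with or without quercetin, a plant flavonol. After 14 days of adaptation to the RM3 diet, the treated mice received it with quercetin at 6200 ppm (6.2 g/kg, given as 7 mg per mouse), and tissue was taken 24 h later. The groups were wild type control, wild type quercetin, POR-null control and POR-null quercetin. Each group had 3 arrays, and every array carried RNA pooled from 3 mice, and mice of different groups were separate animals. Every replicate is thus a pool. SDs measure how pools of one group differ, and p-values test a difference between group means against the spread between pools within all 4 groups. All 4 groups had the RM3 diet. The labels do not say in which cells the reductase is missing, and the deleted gene is not analysed here. As background, the reductase sits in the ER membrane and passes electrons to the microsomal cytochromes P450.

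Proteins that enter the secretory pathway are threaded into the ER through the Sec61 channel, folded there by chaperones of the Hsp70 and Hsp90 families, by lectins and by disulfide isomerases, and destroyed through ER-associated degradation when folding fails. When unfolded protein builds up, the sensors IRE1 (Ern1), PERK (Eif2ak3) and ATF6 start the unfolded protein response: IRE1 splices Xbp1 mRNA, PERK slows translation and favours ATF4 and CHOP (Ddit3), and ATF6 is cut to a transcription factor that induces chaperone genes. In the colon this machinery is best known from goblet cells, which make large amounts of mucin, and from plasma cells of the lamina propria. The arrays measured total transcript. Splicing of Xbp1, cleavage of ATF6 and phosphorylation of the sensors are not seen by them.

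Some chaperone genes are known to carry an ER stress response element (ERSE) in front of their start, a CCAAT box followed after a spacer by CCACG, which is bound by NF-Y together with ATF6 or XBP1. These elements are shown because they are a known regulatory feature of ER stress genes and divide the list by a property that the expression values did not set. RefSeq promoters of the build GRCm38.p6 were available for 28 of the 34 genes. Within the 250 bases before the start, both strands were searched for CCAAT, 9 bases of any kind and CCACG (ERSE), for ATTGG, 1 base of any kind and CCACG (ERSE-II), and for TGACGTG, the core of an ATF6 and XBP1 binding sequence. Both ERSE patterns end in CCACG, and TGACGTG read on the other strand can share letters with that end, which it did in none of the promoters shown. Each ERSE below is written in its own reading direction with its flanks, and the capitals are the fixed letters of the pattern.
Hspa5, chr2:34772015-34772053, plus strand: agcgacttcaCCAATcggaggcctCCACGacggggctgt
Hsp90b1, chr10:86705628-86705666, minus strand: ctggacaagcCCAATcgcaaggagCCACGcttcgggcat
Hsp90b1, chr10:86705523-86705561, plus strand: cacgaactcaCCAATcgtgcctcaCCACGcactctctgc
Calr, chr8:84847065-84847103, plus strand: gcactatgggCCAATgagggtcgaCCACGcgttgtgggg
Canx, chr11:50325790-50325828, minus strand: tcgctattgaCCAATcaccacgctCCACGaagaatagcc
Pdia6, chr12:17266481-17266519, plus strand: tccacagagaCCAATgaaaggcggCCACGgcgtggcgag
Dnajc3, chr14:118937817-118937855, plus strand: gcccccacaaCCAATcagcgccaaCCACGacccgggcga
Creld2, chr15:88819510-88819548, minus strand: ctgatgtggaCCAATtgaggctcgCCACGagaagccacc
Syvn1, chr19:6046522-6046560, plus strand: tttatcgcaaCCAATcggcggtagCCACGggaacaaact

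The ERSE pattern stood before 8 of the 28 genes of the list with a promoter (28.6%). In the whole table it stood before 35 of 27025 genes (0.13%), in 37 of 32851 promoters (0.113%). Hsp90b1 held a pair of copies on opposite strands. Herpud1, an ER membrane protein of the degradation machinery, held the ERSE-II pattern, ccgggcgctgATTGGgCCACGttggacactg at chr8:94386367-94386397, which occurred in 0.0304% of all promoters. TGACGTG stood before Hspa5 and Kdelr3, and before 1.65% of all promoters. The promoter of Hspa5, the gene of the chaperone BiP, is given over its 250 bases before the start because it holds both an ERSE and TGACGTG, in capitals, at chr2:34771840-34772089 on the plus strand:
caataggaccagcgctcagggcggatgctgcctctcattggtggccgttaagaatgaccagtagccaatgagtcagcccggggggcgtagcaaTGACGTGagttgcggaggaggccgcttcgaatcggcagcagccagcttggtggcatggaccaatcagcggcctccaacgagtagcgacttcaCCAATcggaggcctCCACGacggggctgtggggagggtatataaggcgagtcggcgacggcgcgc
A match is a description of these letters, not a measured binding site.

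The deposited values were log2 signals, and array medians lay between 5.90 and 5.98. All 34 genes were above the lower quartile of their array on all 12 arrays. Epithelial markers averaged between 11.51 and 11.77 on the arrays and absorptive colonocyte markers between 11.76 and 12.14, so the markers that define the labelled tissue were bright on every array. Markers of other tissues differed between pools. The mean of 14 pancreatic acinar genes was 8.98 in wild type control pool 1 and 9.77 in POR-null quercetin pool 2, against a median array of 6.61. The mean of 11 smooth muscle genes ran from 5.86 to 9.37, with the highest value in wild type quercetin pool 3. In pooled tissue RNA, fewer cells of a type and less RNA per cell cannot be told apart.

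**Figure D1:**
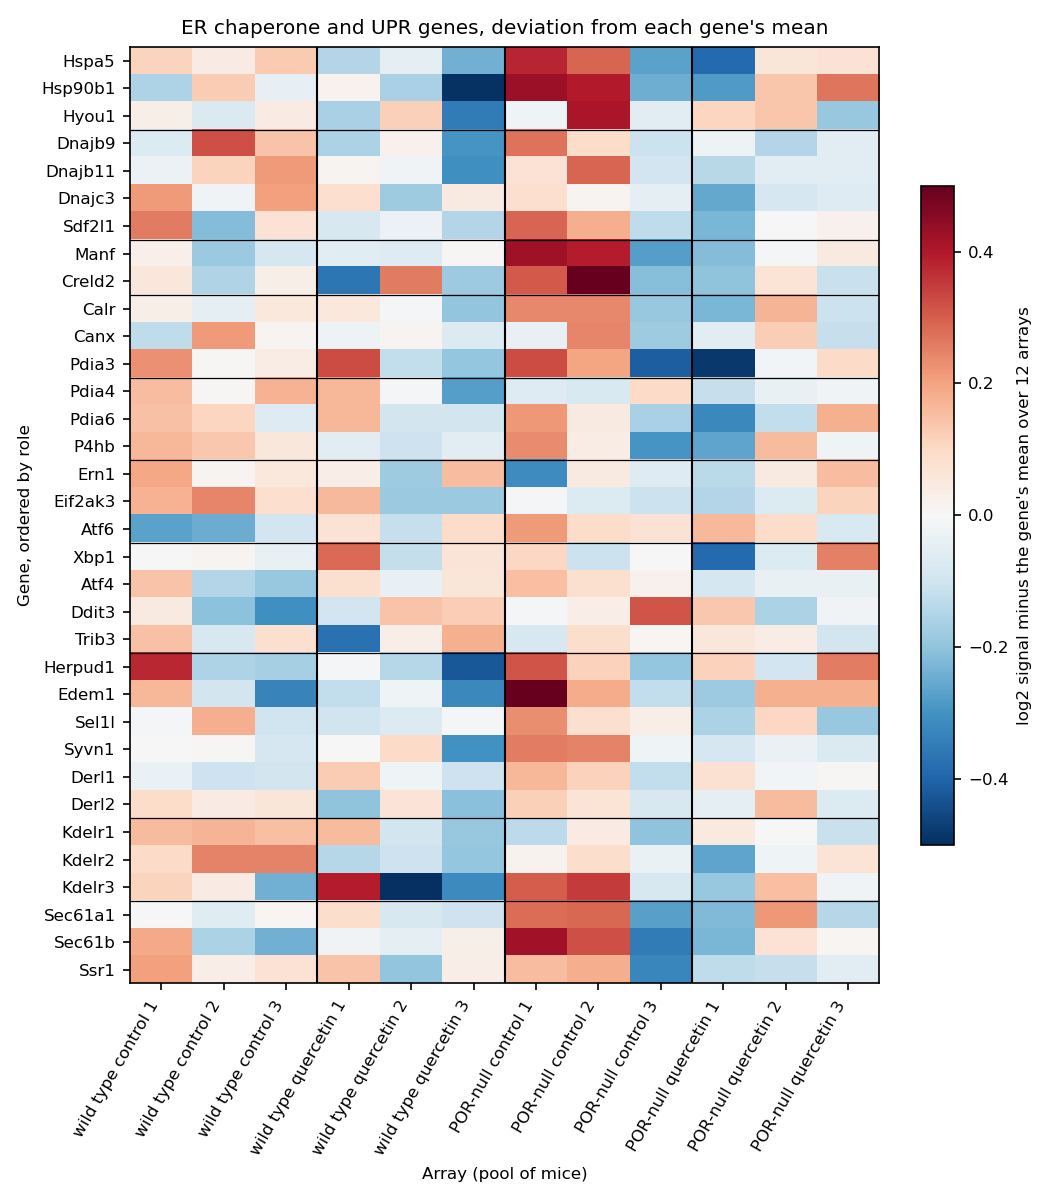
Log2 signal of the 34 ER genes (rows, ordered by role, roles separated by lines) on the 12 arrays (columns, grouped by genotype and diet), as the deviation from each gene's mean over the 12 arrays; red is above and blue below that mean. POR-null control pools 1 and 2 are mostly red, with 15 and 6 genes at their highest value, and wild type quercetin pool 3, POR-null control pool 3 and POR-null quercetin pool 1 are mostly blue.

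The first comparison asked whether quercetin in the diet changed these genes in wild type colon. Signals of 27 of the 34 genes were lower and 7 were higher in the quercetin group, with a median log2 difference of -0.10 against 0.00 over all genes. Single differences lay between -0.34 and 0.22. With the probe set used for each gene, none of the 34 came to a change of 0.5 on the log2 scale, beside 2.02% of all genes. No gene of the list passed the threshold of an adjusted p of 0.05 in the limma fit, beside 0% of all 22626 probe sets tested. At an unadjusted p of 0.05, 3 of the 34 genes passed, beside 5.15% of all probe sets. Those genes were Kdelr2 and Dnajb9, which were lower, and Atf6, which was higher.

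The same question in POR-null mice rests on 6 other arrays, so that both quercetin comparisons share no sample. There 30 of the 34 genes were lower and 4 higher on quercetin, with a median of -0.13 against 0.01 over all genes and a range of -0.28 to 0.13. None passed at an adjusted p of 0.05, beside 0% of all probe sets, and none had an unadjusted p under 0.05, against 2.82% of all probe sets. Differences below 0 were found for 49% of all probe sets in wild type and 47.2% in POR-null. A total of 23 of the 34 genes (67.6%) were lower on quercetin in both genotypes and 0 were higher in both. Over all 12393 genes, 21.9% were lower in both, and over probe sets the share was 22.2%. The genes share RNA, arrays and cell types, so these counts describe the 12 arrays and carry no test.

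The medians moved with single pools. In wild type the median was -0.04 with 22 genes lower without quercetin pool 3, and -0.05 with 26 lower without control pool 1. In POR-null the median was -0.05 without control pool 1, -0.08 without control pool 2, and -0.06 with 25 genes lower without quercetin pool 1. Without POR-null control pool 3 it was -0.20, with 30 genes lower.

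**Figure D2:**
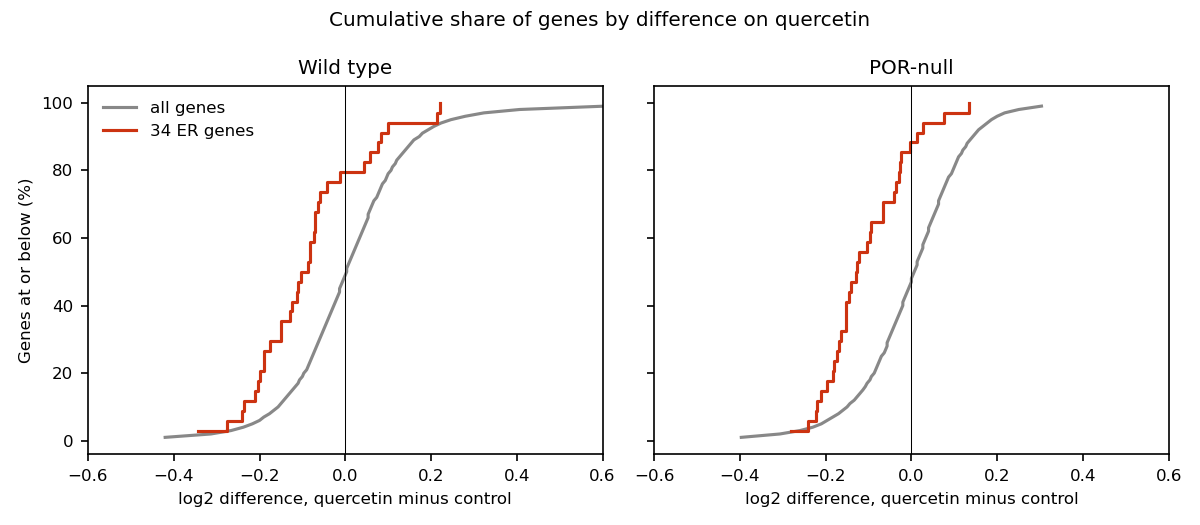
Cumulative share of genes (%) against the log2 difference, quercetin minus control diet, in wild type (left) and POR-null mice (right), for all 12393 genes in grey and the 34 ER genes in red. The red line lies to the left of the grey one over most of its length, with medians of -0.10 and -0.13 against 0.00 and 0.01, and the distributions end within the range of all genes.

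**Figure D3:**
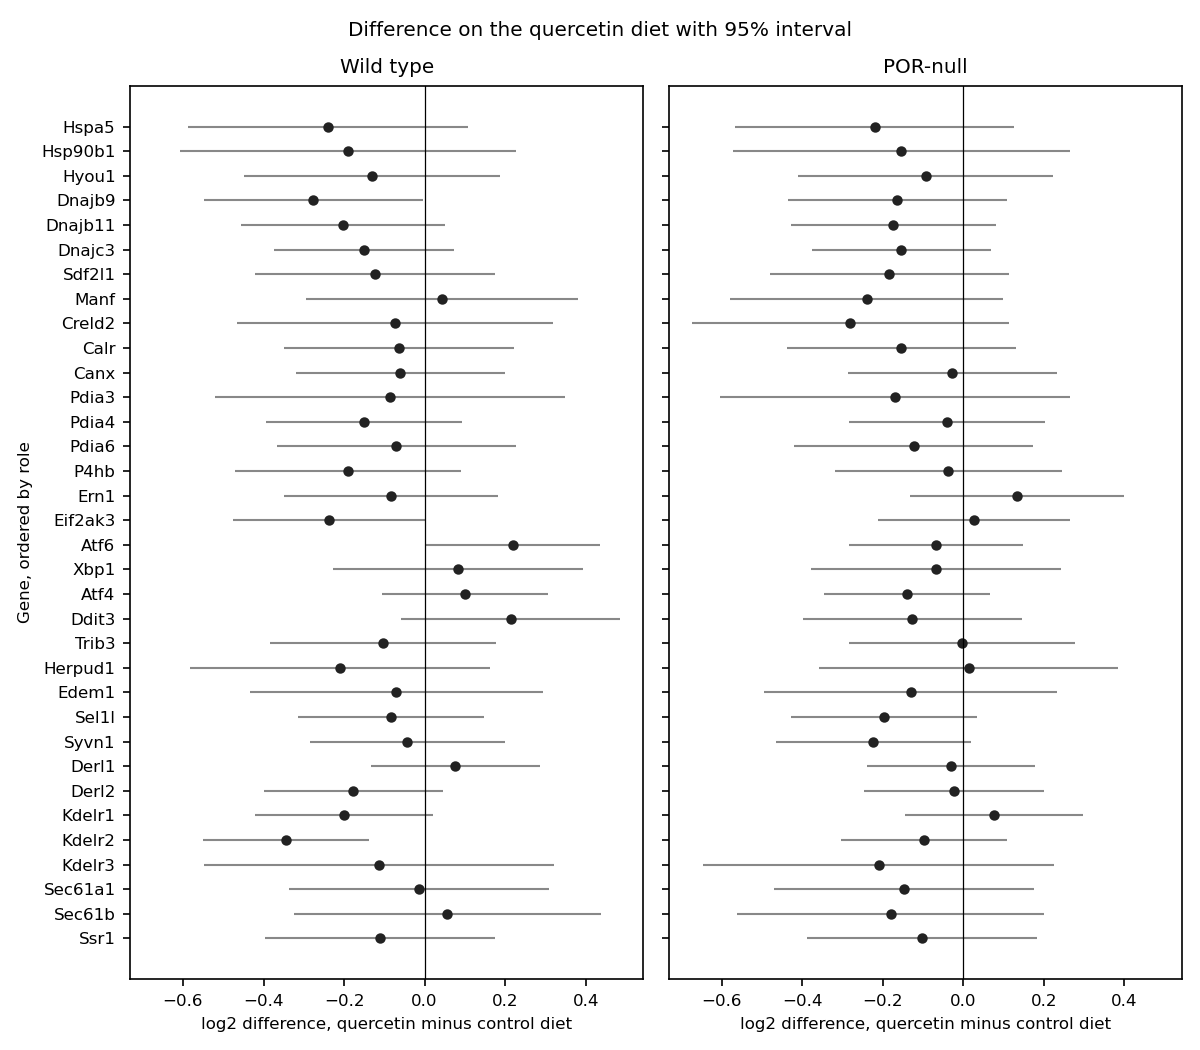
Log2 difference, quercetin minus control diet, for each of the 34 ER genes in wild type (left) and POR-null mice (right); points are estimates of the limma fit over 3 against 3 arrays and bars their 95% intervals before adjustment for multiple tests. In wild type only the intervals of Kdelr2, Dnajb9 and Atf6 leave out 0, and in POR-null all 34 include it.

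Among the luminal chaperones, Hspa5 encodes BiP, the Hsp70 of the ER lumen that also holds the stress sensors inactive. Its log2 signal was 10.55, 10.48 and 10.57 in the wild type control pools and 10.29, 10.39 and 10.20 in the wild type quercetin pools. All 3 quercetin pools were below all 3 control pools, with a difference of -0.24 (SE 0.16, limma adjusted p = 0.957) and a 95% interval of -0.59 to 0.11. In POR-null mice Hspa5 read 10.82, 10.73 and 10.17 on the control diet and 10.05, 10.50 and 10.51 on quercetin. These groups overlapped, with a difference of -0.22 (SE 0.16, n = 3 pools per group) and a wide spread in both. The difference was -0.42 without control pool 3 and -0.07 without quercetin pool 1.

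Hsp90b1 encodes GRP94, the Hsp90 of the ER. It read 8.62, 8.90 and 8.73 in wild type control and 8.79, 8.61 and 8.28 in wild type quercetin, a difference of -0.19 (SE 0.19). POR-null control pools gave 9.20, 9.17 and 8.53, and POR-null quercetin pools 8.49, 8.91 and 9.04, a difference of -0.15 (SE 0.19). The groups overlapped in both genotypes, and the low values belonged to wild type quercetin pool 3, POR-null control pool 3 and POR-null quercetin pool 1. Hyou1, a large Hsp70-related nucleotide exchange factor for BiP, differed by -0.13 and -0.09 (SE 0.15 each) in wild type and POR-null.

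The co-chaperones work with BiP, and all 4 were lower on quercetin in both genotypes. Dnajb9 (ERdj4), a J-domain protein that keeps IRE1 repressed, read 8.32, 8.71 and 8.53 in wild type control and 8.23, 8.41 and 8.09 in wild type quercetin. It was lower by 0.28 on the log2 scale, coded as -0.28 (SE 0.13, unadjusted p = 0.0466, limma adjusted p = 0.957), and the groups overlapped. The interval ran from -0.55 to -0.0048. In POR-null mice Dnajb9 read 8.66, 8.48 and 8.28 without and 8.36, 8.24 and 8.33 with quercetin, a difference of -0.16 (SE 0.13).

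Dnajb11 (ERdj3), a secreted J-domain partner of BiP, read 9.29, 9.43 and 9.53 in wild type control and 9.33, 9.30 and 9.01 in wild type quercetin, a difference of -0.20 (SE 0.12). Its values in POR-null were 9.39, 9.61 and 9.22 on the control diet and 9.18, 9.26 and 9.26 on quercetin, a difference of -0.17 (SE 0.12). Averaged over both genotypes, Dnajb9 was lower by 0.22 (-0.22, SE 0.09, unadjusted p = 0.0280) and Dnajb11 by 0.19 (-0.19, SE 0.08, unadjusted p = 0.0410). Both had a limma adjusted p of 0.998. With Kdelr2 they were the 3 of 34 genes with an unadjusted p under 0.05 in this average, beside 3.25% of all probe sets, and 29 of 34 were below 0, beside 46.9%. Dnajc3 (p58IPK), a J-domain inhibitor of PERK, differed by -0.15 (SE 0.10) in each genotype, and in POR-null its quercetin pools (7.29, 7.46 and 7.48) lay below all control pools (7.63, 7.56 and 7.50). Sdf2l1, a cofactor of the J-domain proteins, differed by -0.12 and -0.18 (SE 0.14).

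Manf and Creld2 encode small ER stress-induced proteins that can be secreted. Manf differed by 0.04 in wild type and by -0.24 in POR-null (SE 0.16), and Creld2 by -0.07 and -0.28 (SE 0.18). The Creld2 difference in POR-null was the lowest of the list there. Its control pools read 7.69, 7.88 and 7.17 and its quercetin pools 7.18, 7.45 and 7.27, so that control pool 3 lay below all quercetin pools.

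The lectin chaperones calreticulin (Calr) and calnexin (Canx) hold glycoproteins for the thiol oxidoreductase ERp57 (Pdia3). Calr differed by -0.06 and -0.15 (SE 0.13) in wild type and POR-null, Canx by -0.06 and -0.03 (SE 0.12), and Pdia3 by -0.09 and -0.17 (SE 0.20). Of the disulfide isomerases, which form and rearrange disulfide bonds, P4hb (PDI itself) read 11.18, 11.15 and 11.07 in wild type control and 10.96, 10.91 and 10.96 in wild type quercetin. These groups did not overlap, with a difference of -0.19 (SE 0.13, limma adjusted p = 0.957). In POR-null P4hb differed by -0.04. Pdia4 differed by -0.15 and -0.04 (SE 0.11) and Pdia6 by -0.07 and -0.12 (SE 0.14). All 6 genes of these 2 groups were lower on quercetin in both genotypes.

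The sensors gave mixed signs. Atf6, the ER membrane transcription factor, read 6.50, 6.52 and 6.67 in wild type control and 6.84, 6.65 and 6.86 in wild type quercetin. It was higher by 0.22 (SE 0.10, unadjusted p = 0.0464, limma adjusted p = 0.957), with quercetin pool 2 within the range of the controls. In POR-null mice it read 6.98, 6.86 and 6.84 on the control diet and 6.93, 6.86 and 6.69 on quercetin, a difference of -0.07 (SE 0.10). Eif2ak3 (PERK) differed by -0.24 in wild type and 0.03 in POR-null (SE 0.11), and Ern1 (IRE1 alpha) by -0.08 and 0.13 (SE 0.12).

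Downstream of the sensors, Xbp1, the transcription factor of the IRE1 branch, read 10.31, 10.32 and 10.27 in wild type control and 10.59, 10.19 and 10.37 in wild type quercetin, a difference of 0.08 (SE 0.14). In POR-null it read 10.41, 10.20 and 10.31 without and 9.92, 10.24 and 10.56 with quercetin, a difference of -0.07 (SE 0.14). The quercetin pools spread widely around tight controls in wild type, and the sign turned without wild type quercetin pool 1 (-0.02) or without POR-null quercetin pool 1 (0.09).

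In the PERK branch, Atf4 read 9.63, 9.34 and 9.30 in wild type control and 9.57, 9.45 and 9.55 in wild type quercetin, a difference of 0.10 (SE 0.10). POR-null control pools gave 9.64, 9.57 and 9.51 and POR-null quercetin pools 9.40, 9.45 and 9.45, a difference of -0.14 (SE 0.10) between groups that did not overlap. In wild type the other probe sets of Atf4 gave -0.19 and -0.26, the opposite sign. The latter had a mean of only 4.31, below the lower quartiles of the arrays (4.66 to 4.78). It read 5.06, 4.30 and 4.28 in wild type control and 4.33, 4.21 and 4.32 in wild type quercetin. In POR-null these probe sets gave -0.14 and 0.03. Ddit3 (CHOP), the ATF4 target linked to cell death, read 7.42, 7.17 and 7.07 in wild type control and 7.28, 7.52 and 7.50 in wild type quercetin, a difference of 0.21 (SE 0.13). Its POR-null pools read 7.37, 7.41 and 7.69 without and 7.51, 7.22 and 7.36 with quercetin, a difference of -0.13 (SE 0.13). The groups of Ddit3 overlapped in both genotypes. Trib3, a pseudokinase induced by ATF4 and CHOP, differed by -0.10 and 0.00 (SE 0.13).

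**Figure D4:**
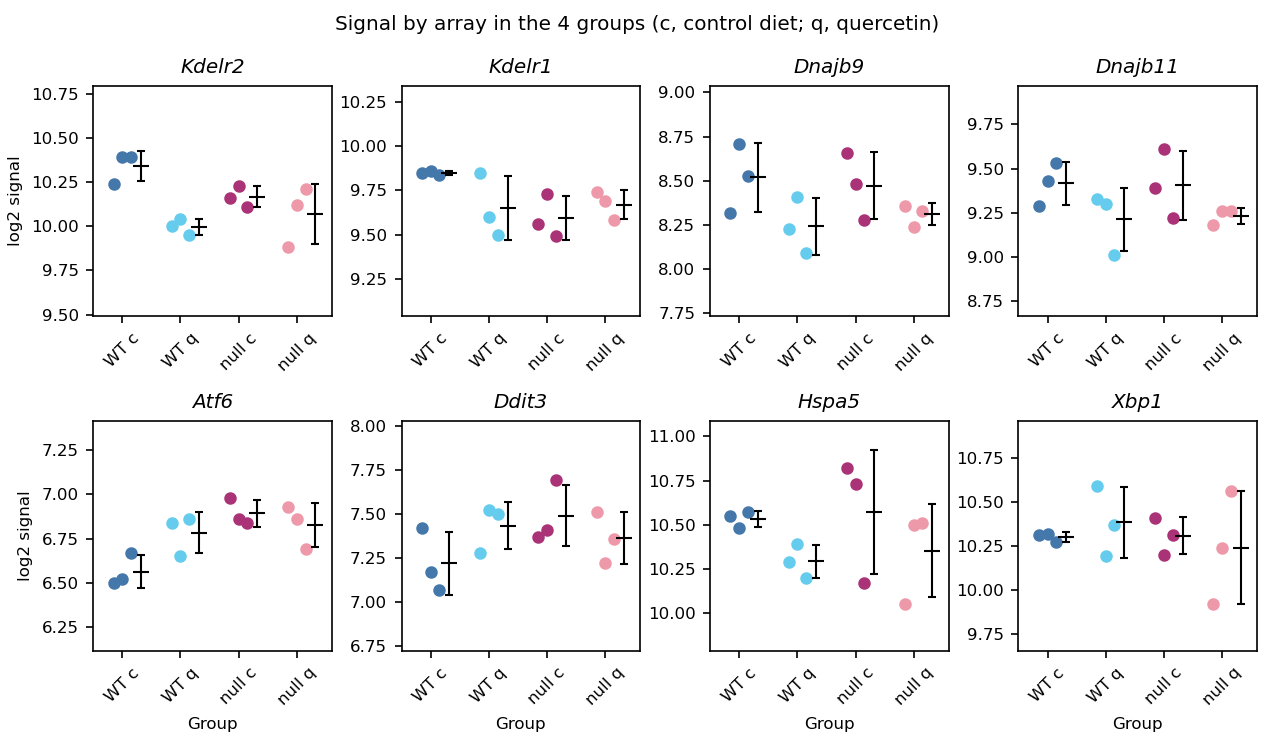
Log2 signal on each array (points) of 8 genes in the 4 groups (WT, wild type; null, POR-null; c, control diet; q, quercetin); the bar beside each group is its mean with the SD over 3 arrays, and every panel spans the same height. Kdelr2 is separated between the wild type groups (9.95 to 10.04 against 10.24 to 10.39) and Atf6 between the control diets of the genotypes, while most other groups overlap.

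Of the degradation genes, Herpud1, whose product gathers the retrotranslocation complex, read 8.96, 8.43 and 8.42 in wild type control and 8.58, 8.44 and 8.16 in wild type quercetin. The difference was -0.21 (SE 0.17), and -0.03 without wild type control pool 1. In POR-null mice Herpud1 read 8.90, 8.70 and 8.39 without and 8.70, 8.49 and 8.84 with quercetin, a difference of 0.01 (SE 0.17). A second probe set of Herpud1 gave -0.18 and -0.21.

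Syvn1 encodes HRD1, the ubiquitin ligase of the pathway, and Sel1l its partner. Syvn1 differed by -0.04 in wild type and by -0.22 in POR-null (SE 0.11), where the quercetin pools (8.19, 8.24 and 8.20) lay below all control pools (8.53, 8.52 and 8.25). Sel1l differed by -0.08 and -0.20 (SE 0.11). Edem1, a lectin that hands misfolded glycoproteins to degradation, differed by -0.07 and -0.13 (SE 0.17). The derlins, membrane proteins of the retrotranslocation step, gave 0.08 and -0.03 for Derl1 and -0.18 and -0.02 for Derl2 (SE 0.10).

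The KDEL receptors return escaped chaperones such as BiP from the Golgi. Kdelr2 had the lowest unadjusted p of the list. It read 10.24, 10.39 and 10.39 in wild type control and 10, 10.04 and 9.95 in wild type quercetin, and the groups did not overlap. The difference was -0.34 (SE 0.10, 95% interval -0.55 to -0.14), a fold of 0.788, with an unadjusted p of 0.00323 and a limma adjusted p of 0.948. In POR-null mice Kdelr2 read 10.16, 10.23 and 10.11 on the control diet and 9.88, 10.12 and 10.21 on quercetin, a difference of -0.10 (SE 0.10), which was near 0 (-0.0017) without quercetin pool 1. The interaction, which tests the difference between the genotypes, was 0.25 (SE 0.13, limma adjusted p = 0.998).

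A second probe set of Kdelr2 read 9.09, 9.23 and 9.27 in wild type control and 8.81, 8.66 and 8.52 in wild type quercetin. It gave -0.53 (SE 0.11, unadjusted p = 0.000276, limma adjusted p = 0.624) in wild type and -0.14 (SE 0.11) in POR-null, with an interaction of 0.40 (SE 0.15, unadjusted p = 0.0222, limma adjusted p = 0.998). Both probe sets of Kdelr2 thus had the same order of groups in wild type, and neither passed the threshold. This probe set was examined after the data were seen. Kdelr1 read 9.85, 9.86 and 9.84 in wild type control and 9.85, 9.60 and 9.50 in wild type quercetin, a difference of -0.20 (SE 0.10). In POR-null it read 9.56, 9.73 and 9.49 without and 9.74, 9.69 and 9.58 with quercetin, a difference of 0.08 (SE 0.10). Kdelr3 differed by -0.11 and -0.21 (SE 0.20).

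Sec61a1 and Sec61b form the translocation channel and Ssr1 belongs to the TRAP complex beside it. Sec61a1 differed by -0.01 and -0.15 (SE 0.15), Sec61b by 0.06 and -0.18 (SE 0.18) and Ssr1 by -0.11 and -0.10 (SE 0.13). Sec61a1 has 6 probe sets, which ranged from -0.35 to 0.15 in wild type and from -0.17 to -0.03 in POR-null.

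Groups that did not overlap were found for Hspa5, P4hb and Kdelr2 in wild type and for Dnajc3, Atf4 and Syvn1 in POR-null, all lower on quercetin. Over all probe sets, 3.66% and 3.27% were lower without overlap in these comparisons. No gene of the list was in both sets.

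The 8 genes with an ERSE shown above were all lower on quercetin in both genotypes, with a median of -0.07 in wild type and -0.15 in POR-null. Of the 20 genes whose promoter held no exact match to the ERSE pattern in this window, 16 were lower in each genotype. Their medians were -0.11 and -0.12, and Herpud1 with its ERSE-II was counted among them. For Edem1, Eif2ak3 and 1 of the 2 windows of Derl2, which are among these 20, the window was set on another start than the annotated start of the gene. In wild type the genes with an ERSE therefore had the median closer to 0. The 6 genes without a promoter in the table had 3 and 6 members lower. Of the genes outside the list whose promoter held an ERSE, 9 were on the array, and 6 of them were lower in wild type (median -0.01) and 4 in POR-null (median 0.01). None of those 9 had an unadjusted p under 0.05.

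The second axis of the design was genotype. It shares its arrays with the quercetin comparisons. A high POR-null control group lowers the quercetin difference in POR-null and raises the genotype difference on the control diet. A high wild type control group lowers both the quercetin difference in wild type and that genotype difference. On the control diet 19 of the 34 genes were higher and 15 lower in POR-null than in wild type, with a median of 0.05 and a range of -0.26 to 0.33. Of all probe sets 52.9% were lower. None passed at an adjusted p of 0.05, nor did any of all probe sets (0%), and 2 of 34 had an unadjusted p under 0.05, against 6.79% of all probe sets.

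Those 2 genes were Atf6 and Kdelr1. Atf6 was higher in all 3 POR-null control pools (6.84 to 6.98) than in any wild type control pool (6.50 to 6.67), by 0.33 (SE 0.10, unadjusted p = 0.00575, limma adjusted p = 0.710). Kdelr1 was lower in POR-null (9.49 to 9.73) than in wild type (9.84 to 9.86), by -0.26 (SE 0.10, unadjusted p = 0.0260, limma adjusted p = 0.719), and by -0.14 with pancreatic, B cell and smooth muscle marker means as covariates. Eif2ak3 (-0.23, SE 0.11) and Kdelr2 (-0.17, SE 0.10) were also lower without overlap. Of all probe sets, 4.86% were lower and 4.81% higher without overlap.

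The genotype median on the control diet moved with single POR-null control pools. Without pool 3 it was 0.17 and 7 genes were lower, without pool 2 it was -0.01, and without pool 1 it was 0.00. Apart from Atf6, the largest positive differences were those of Ddit3 (0.27, SE 0.13), Edem1 (0.27, SE 0.17) and Manf (0.26, SE 0.16). A second probe set of Edem1 gave -0.0067.

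On the quercetin diet 21 genes were higher and 13 lower in POR-null, with a median of 0.02, and 51.9% of all probe sets were lower. The adjusted p was 0.998 for every gene of the list, none had an unadjusted p under 0.05, and 2.39% of all probe sets did. The groups overlapped for all 34 genes, while 6.82% of all probe sets had groups apart. Atf6 differed there by 0.04 (SE 0.10) and Kdelr1 by 0.02 (SE 0.10). Averaged over the diets, 22 of the 34 genes were higher and 12 lower in POR-null, beside 53.1% of all probe sets lower. In that average Atf6 was higher by 0.19 (SE 0.07, unadjusted p = 0.0204, limma adjusted p = 0.998), the only gene of the list with an unadjusted p under 0.05, against 4.18% of all probe sets.

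The interaction asked whether quercetin acted differently in the genotypes. It was above 0 for 16 and below 0 for 18 of the 34 genes, with a median of -0.03, beside 48.5% of all probe sets below 0, and 0 of 34 had an unadjusted p under 0.05, against 4.74% of all probe sets. The widest interactions were those of Ddit3 (-0.34, SE 0.18), Atf6 (-0.29, SE 0.14) and Manf (-0.28). These genes were higher on quercetin in wild type and lower in POR-null. Next came Kdelr1 (0.28, SE 0.14), which had the opposite signs. None of these differences between genotypes passed (limma adjusted p = 0.998).

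Pools of one group differed among themselves. Over the 34 genes the median range within a group was 0.21 in wild type control, 0.29 in wild type quercetin, 0.39 in POR-null control and 0.28 in POR-null quercetin. The mean of the 34 genes was 8.57 ± 0.05 (SD, n = 3), 8.49 ± 0.07, 8.62 ± 0.17 and 8.51 ± 0.09 in those groups. POR-null control pools 1 and 2 were above the gene's own median for 27 and 31 of the 34 genes and pool 3 for 4. Pool 1 held the highest of all 12 values for 15 genes and pool 2 for 6. The lowest values fell in wild type quercetin pool 3 (9 genes), POR-null control pool 3 (8) and POR-null quercetin pool 1 (8).

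Goblet cell markers had the same order of pools as the 34 genes within each wild type group. Within each POR-null group they shared the lowest pool but not the highest. Their mean over 8 genes was 11.83, 11.87 and 11.58 in the POR-null control pools, where that of the 34 genes was 8.72, 8.71 and 8.43. In POR-null quercetin the goblet means were 11.44, 11.69 and 11.91 and the ER means 8.41, 8.57 and 8.55. In wild type control they were 11.80, 11.50 and 11.50 beside ER means of 8.63, 8.55 and 8.54. Wild type quercetin had goblet means of 11.76, 11.72 and 11.55 and ER means of 8.56, 8.49 and 8.42. The pool with the lowest ER mean was thus also the lowest for goblet markers in each of the 4 groups, with pools 2 and 3 of wild type control level to 2 decimals for goblet markers. Across groups the goblet markers were divided in wild type, where most ER genes were lower on quercetin. There 5 of the 8 were higher and 3 lower (median 0.22, range -0.74 to 0.44). In POR-null 7 of 8 were lower (median -0.10, range -0.27 to 0.22). Other marker lists shared parts of the order of pools of the 34 genes. In wild type control the acinar, B and plasma cell, smooth muscle and fibroblast means also fell from pool 1 to pool 3. The absorptive colonocyte and epithelial means did so in wild type quercetin, and the fibroblast means in POR-null control. The part of goblet cells in the result was not tested.

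**Figure D5:**
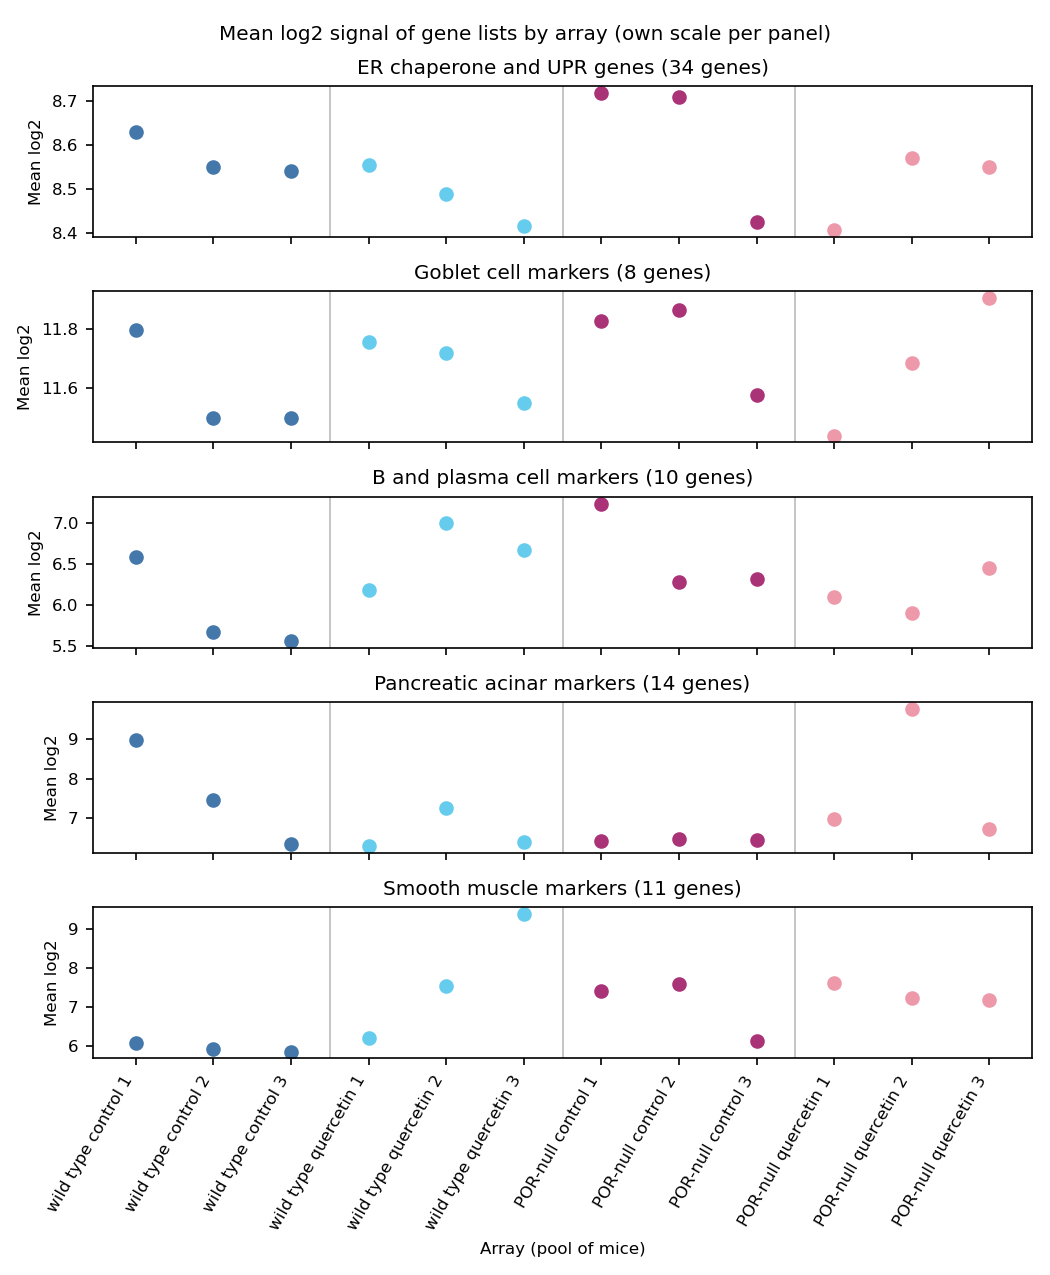
Mean log2 signal on each array of the 34 ER genes and of markers of goblet cells, B and plasma cells, pancreatic acinar cells and smooth muscle; points are arrays, colours groups, and each panel has its own scale. The ER means lie between 8.41 and 8.72, acinar signal stands out in wild type control pool 1 (8.98) and POR-null quercetin pool 2 (9.77), and smooth muscle in wild type quercetin pool 3 (9.37).

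Markers of other tissues also differed between the groups, in part through single pools (8.98 and 9.77 for acinar genes, 9.37 for smooth muscle). All 11 smooth muscle markers were higher on quercetin in both genotypes, with medians of 1.96 in wild type and 0.18 in POR-null. All 8 fibroblast markers were higher on quercetin in wild type (median 1.04) and 6 of 8 were lower in POR-null (median -0.21). Of 10 B and plasma cell markers 9 were higher in wild type (median 0.81) and 8 lower in POR-null (median -0.51). Of 14 acinar markers 12 were lower in wild type (median -0.98) and 12 higher in POR-null (median 1.51). Among markers of the labelled tissue, all 9 absorptive colonocyte genes were lower on quercetin in wild type (median -0.05). In POR-null 5 of these 9 were lower (median -0.03). Of 7 epithelial markers 3 were lower in wild type (median 0.01) and 4 in POR-null (median -0.02). None of the markers of any list passed at an adjusted p of 0.05, and the part of the colonocytes in the result was not tested.

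With the means of the acinar, B and plasma cell and smooth muscle markers as covariates, the median of the 34 genes was -0.10 in wild type and -0.10 in POR-null, with 22 and 26 genes lower. Without the arrays of high acinar signal it was -0.05 and -0.14. Plasma and acinar cells are rich in ER, and their part in the result was not tested beyond these values. The range of the B and plasma cell means was 5.56 to 6.59 in wild type control, 6.19 to 7.01 in wild type quercetin, 6.28 to 7.24 in POR-null control and 5.90 to 6.45 in POR-null quercetin.

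Further genes of the same pathways were taken from lists of names, which were chosen with earlier results of these data known. Of 32 other ER folding and stress response genes, 24 were lower on quercetin in wild type (median -0.12) and 22 in POR-null (median -0.06). Of 25 other translocation and glycosylation genes the numbers were 18 (median -0.08) and 22 (median -0.10). Of 17 other degradation genes they were 10 (median -0.03) and 15 (median -0.08), and of 24 targets of ATF4 and CHOP 14 (median -0.05) and 18 (median -0.05). None of these genes passed at an adjusted p of 0.05 in either direction.

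Among them Ern2, the IRE1 paralog of goblet cells, which is also one of the goblet markers, was higher by 0.44 (SE 0.18, unadjusted p = 0.0268) on quercetin in wild type and by 0.42 (SE 0.18) in POR-null on the control diet. It read 8.14, 7.90 and 7.73 in wild type control and 8.46, 8.65 and 7.99 in wild type quercetin, and these groups overlapped. Creb3l1, an ATF6-related membrane factor, differed by -0.42 (SE 0.20) and Edem3, a mannosidase of the degradation pathway, by -0.31 (SE 0.15) on quercetin in wild type.

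In POR-null, Atf3, a stress-induced transcription factor downstream of ATF4, read 8.30, 8.21 and 8.43 on the control diet and 7.89, 7.95 and 7.78 on quercetin. All quercetin pools were below all control pools, with a difference of -0.44 (SE 0.12, unadjusted p = 0.0025, limma adjusted p = 1). In wild type Atf3 read 8.36, 8.06 and 7.97 without and 7.95, 8.08 and 7.78 with quercetin, and the groups overlapped. Ddit4, a stress-induced inhibitor of mTORC1, differed by -0.45 (SE 0.21) and Psat1, an enzyme of serine synthesis, by -0.40 (SE 0.17) in POR-null. The signal of Psat1 was low, at 5.02, 4.46 and 4.26 on the control diet and 4.13, 4.49 and 3.93 on quercetin. These groups overlapped in POR-null. Ero1a, the oxidase that recharges the disulfide isomerases, differed by -0.25 (SE 0.12) there. Wars1, a tryptophanyl-tRNA synthetase, was higher in POR-null on the control diet by 0.33 (SE 0.09, unadjusted p = 0.00246, limma adjusted p = 0.710).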

How the data were processed

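RNA from the scraped colon epithelium was measured on Affymetrix 430A arrays, 12 in all, with 3 pools of 3 mice in each of 4 groups, per the labels. The authors deposited log2 signals, which ran from 2.7 to 14.09. Of the tools in the submitters' processing notes, MAS5 and RMA, no version is named, and which made these values is not given in the sources used here. Nothing was renormalized.

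The 64 control probe sets were left out, and 22626 were tested with limma 3.58.1 in R 4.3.3 (lmFit, then eBayes with trend), in 1 fit of 4 group means. Tests were two-sided and adjusted by Benjamini and Hochberg over all tested probe sets in each contrast, and 0.05 was the threshold. The fit had 8 residual and 12.91 moderated degrees of freedom. Standard errors come from this fit. The number of arrays limits the precision.

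Genes were described by role. Values by array are given for Hspa5, Hsp90b1, Xbp1, Atf4, Ddit3, Herpud1 and Kdelr2, for genes of the list with an unadjusted p under 0.05, and for some chosen after their values were seen (P4hb, Creld2, Dnajc3, Syvn1, Ern2, Atf3). From the other pathway lists up to 3 genes of lowest p in a comparison were eligible. The genes and lists were chosen with earlier results of these data known. Promoter sequences are RefSeq's (GRCm38.p6) and were searched in Python 3.11.15. Alternatives were quantile normalization, the mean of all probe sets of a gene, a signal filter, no trend, fitting only the groups compared, array weights, marker covariates, leaving out arrays and a block on replicate number.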

Additional observations from a re-analysis of the deposited data

How the results depend on the processing

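No gene of the 34 passed at an adjusted p of 0.05 under any alternative, in any of the 7 comparisons. Over all probe sets, where 0 passed, 1 passed for genotype on the quercetin diet with a replicate block and 1 when only the groups compared were fitted. With array weights 2 passed for quercetin in wild type and 399 for genotype on the control diet, where 46 passed without the arrays of high pancreatic signal; the cause was not tested. Leaving out 1 array at a time gave 0 to 41 for genotype on the control diet and 0 to 2 for the genotype average (highest without wild type control pool 1), 0 to 3 for quercetin in wild type (highest without its quercetin pool 1), and 0 to 1 for the other comparisons. Those single calls came without wild type quercetin pool 1 (genotype on quercetin, interaction) or without POR-null quercetin pool 1 (both of these, quercetin in POR-null and both averages). The median of the 34 genes then ran from -0.01 to 0.17 for genotype on the control diet, -0.16 to 0.055 for the interaction, -0.12 to -0.04 for quercetin in wild type and -0.20 to -0.05 in POR-null. The number of genes lower ran from 7 to 19 for genotype on the control diet, from 7 to 20 on the quercetin diet, and was 9 on the control diet with array weights. Signs turned for Atf4 in wild type (-0.12) and Herpud1 in POR-null (-0.10) with the mean of all probe sets, for Herpud1 in POR-null with array weights (-0.018), and for Xbp1 in POR-null with marker covariates (0.059). With single arrays left out, differences crossed 0 for Xbp1 in wild type (-0.02 to 0.18) and, in POR-null, for Herpud1 (-0.12 to 0.13), Hsp90b1 (-0.37 to 0.0083) and Xbp1 (-0.23 to 0.093). Taking every probe set of a member, an alternative chosen after seeing the data, gave medians of -0.08 and -0.09 for quercetin in wild type and POR-null. Residuals of arrays with the same replicate number correlated between -0.19 and 0.26, over 0.1 in 6 of 18 pairs. Their median was 0.041, against -0.022 for arrays of other numbers in other groups. With 1 array per number and group, these values cannot decide whether arrays of a number shared a batch. The replicate block left the medians for quercetin at -0.10 in wild type and -0.13 in POR-null. Only 3 pools per group bound what could be detected: the median standard error of a difference was 0.13 for the 34 genes.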
